A study of Mus musculus with 10 samples.

Results

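The Slc25 genes encode the mitochondrial carriers, the solute carrier family that moves metabolites across the inner mitochondrial membrane. They were examined in mouse liver with and without Rev-erb alpha, the nuclear receptor encoded by Nr1d1. The members were all genes whose single symbol in the array annotation began with Slc25a and a number, each represented by its probe set of highest mean. The rule found 50 probe sets for 46 genes, among 19933 genes tested. Livers came from 5 wild-type (WT) mice and 5 Rev-erb alpha -/- mice (KO), all male, on the C57Bl/6 strain, 10 to 12 weeks of age and fed normal chow. All were kept on a cycle of 12 h light and 12 h dark, were housed and harvested together and were killed at ZT10, which is 10 h after lights on. The labels give the deletion as -/- and name no promoter or cell type that would limit it to hepatocytes. WT mice were purchased while the KO line came from another source and had at least 7 generations of backcrossing, so genotype and origin cannot be told apart. Total RNA of each liver was hybridised by itself to a Mouse Gene 1.0 ST array, so the 5 replicates of a group were 5 mice.

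Mitochondrial carriers are small membrane proteins built from a repeated fold, and most exchange a solute of the matrix for one of the intermembrane space. In liver they carry the ADP and ATP of oxidative phosphorylation, the citrate used for fatty acid synthesis, the acylcarnitines that enter beta-oxidation, and the aspartate and ornithine needed by the urea cycle. Rev-erb alpha is a repressor of the circadian clock that binds DNA and recruits a corepressor complex with a histone deacetylase. The comparison asks which of these carrier transcripts differ when the repressor is missing late in the light phase.

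Levels are log2 of the deposited intensity, and differences are KO minus WT on that scale, with the standard error (SE) from limma. A gene was called where limma's p, adjusted by Benjamini-Hochberg over the whole table of genes, was under 0.05. Intensity depends on the probes as well as the transcript, so no carrier's level is set against another's. The lower quartile of the arrays lay between 6.00 and 6.11 and their median intensity between 155.8 and 165.0. The 3 arrays with the widest spread of values were WT replicate 1, KO replicate 4 and KO replicate 5. Arntl, a clock gene that Rev-erb alpha represses, rose from 7.30 ± 0.24 in WT to 9.43 ± 0.29 in KO (SD, n = 5; limma adjusted p = 3.2e-06). The Nr1d1 probe set did not separate the genotypes, with 9.78 ± 0.16 in WT and 9.92 ± 0.45 in KO, and the sources used here do not state whether its probes lie in the deleted part. The measured hepatocyte markers summed to intensities of 71094.7 to 73875.1 in WT and 69190.8 to 73137.1 in KO, and 0 of 5 were called. Of the other 8 marker lists, 7 had no called gene. The cholangiocyte list had 1 of 4, Sox9, which was higher in KO by 0.62 (limma adjusted p = 0.0129). The other cholangiocyte markers, Krt19, Krt7 and Epcam, differed by -0.02, -0.105 and -0.01 and were not called. The cholangiocyte sum was 592.0 to 691.0 in WT and 709.8 to 912.8 in KO, so these ranges did not overlap. Of the 4 markers in this sum, Sox9 was the only one with a higher mean in KO. The part of cell composition in the carrier differences was not tested.

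Of the 46 carriers, 3 were called. Slc25a48 rose, while Slc25a37 and Slc25a25 fell. These 3 were 6.52% of the members, beside 5.61% of all genes tested, of which 3.17% were higher and 2.44% lower. For 5 carriers all KO livers lay on one side of all WT livers, which is 10.9% of the members beside 7.00% of all genes. Both shares were near the background, so the counts are no result about the family as a whole. The median difference was 0.02 over the carriers and 0.01 over all genes, with 26 of 46 carriers above 0. The median size of a difference, regardless of sign, was 0.10 for the carriers and 0.06 for all genes. These sizes were not matched for brightness. A mean at or above that of the median gene was found for 35 of 46 carriers and 9967 of 19933 genes. Differences ran from -0.59 to 0.53, 26 carriers lay within 0.1 of 0, and none of the 3 called carriers reached 1.5-fold. Among the 43 uncalled carriers, 9 had an unadjusted limma p under 0.05. With the called ones these were 12 of 46, or 26.1%, beside 17.4% of all genes, and the shares were not tested. For 20 carriers the 95% confidence interval of the difference lay wholly inside 0.2 on either side of 0.

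**Figure D1:**
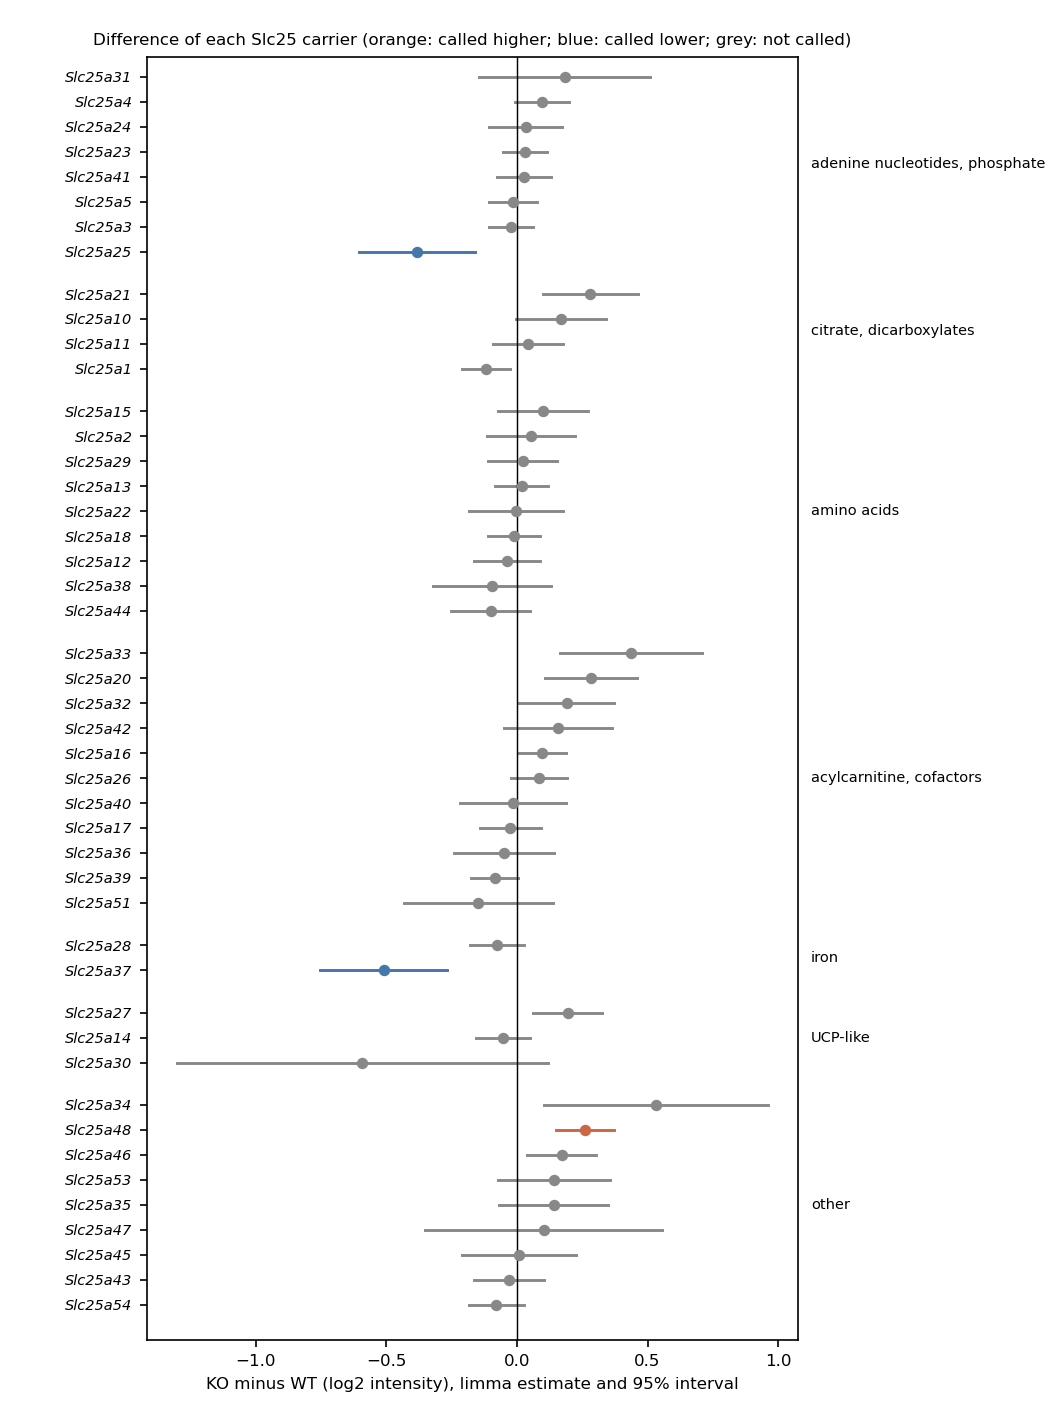
Difference of each Slc25 carrier between KO and WT liver in log2 intensity, with limma's estimate as a point and its 95% interval as a line, grouped by the transported solute. Slc25a48 is the called carrier to the right of 0 (0.26), and Slc25a37 (-0.51) and Slc25a25 (-0.38) are the called carriers to the left.

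Other gene groups give a scale for these counts. Of 305 measured Slc genes outside the family, 31 were called, or 10.2%, with 17 higher and 14 lower and a median difference of 0.00. Of 89 subunits of the oxidative phosphorylation complexes, which use the ATP and phosphate carriers' substrates, 1 was called, or 1.12%, with a median of 0.02. Mitochondrial ribosomal proteins had 1 called gene of 77, or 1.30%, and a median of 0.01. No test of the differences between these shares was made.

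Slc25a48 encodes an inner membrane protein linked to choline import into mitochondria. Its level in WT livers was 8.76, 8.64, 8.65, 8.57 and 8.74, and in KO livers 9.01, 8.87, 8.89, 8.98 and 8.88. Every KO liver was above every WT liver, with a gap of 0.11 between the groups, and the values within each genotype were close. The mean rose from 8.67 ± 0.08 to 8.93 ± 0.06 (SD, n = 5), a difference of 0.26 with SE 0.05 and a 95% interval of 0.15 to 0.37, or 1.20-fold (limma adjusted p = 0.0101). It was called under all 19 other settings tried, with differences of 0.23 to 0.28. RNA was taken from whole liver, so fewer cells of a type and less RNA per cell cannot be told apart for this or any other carrier.

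Slc25a37 encodes mitoferrin 1, which brings iron into mitochondria for heme and iron-sulfur cluster synthesis and is most abundant in developing red cells. The WT livers read 9.82, 9.92, 9.78, 10.12 and 10.22, and the KO livers 9.72, 9.56, 9.22, 9.58 and 9.23. The highest KO liver lay 0.06 below the lowest WT liver, and KO replicates 3 and 5 were the lowest. The mean fell from 9.97 ± 0.19 to 9.46 ± 0.22 (SD, n = 5), a difference of -0.51 with SE 0.11 and a 95% interval of -0.75 to -0.27, so that WT was 1.42-fold KO (limma adjusted p = 0.0185). Without the 3 arrays of widest spread the difference was again -0.51 but the call was lost (limma adjusted p = 0.0976). Slc25a28, mitoferrin 2, which has the same role in cells outside the red lineage, measured 8.86 ± 0.06 in WT and 8.79 ± 0.07 in KO (SD, n = 5), a difference of -0.08 that was not called (limma adjusted p = 0.489). The log2 ratio of Slc25a37 to Slc25a28 within each array was 1.11 ± 0.20 in WT and 0.68 ± 0.20 in KO (SD, n = 5), a difference of -0.43. The exact two-sided permutation p was 0.0159, and 0.0524 after adjustment over the 11 pairs of related carriers compared. A difference between the 2 mitoferrins did not pass, but with so few arrays no pair could pass alone after this adjustment.

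Markers of red cells were read beside Slc25a37. Of 5 erythroid markers 2 had a probe set of their own, and 0 were called. Alas2, the heme synthesis enzyme of red cells, differed by -0.15 (limma adjusted p = 0.403), and Slc4a1, the red cell anion exchanger, by 0.06 (limma adjusted p = 0.856). The summed intensity of these 2 markers was 1734.6 to 2117.3 in WT and 1474.7 to 1889.4 in KO, so the ranges overlapped. Globin probe sets are shared by several genes and were read apart. The 2 for alpha globin differed by 0.31 and 0.35 (limma adjusted p = 0.296 and 0.309 over all probe sets). The 2 for beta globin differed by 0.36 and 0.61 (limma adjusted p = 0.395 and 0.422). None of these 4 globin probe sets was called. The part of red cells in the Slc25a37 difference was not tested.

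Slc25a25 encodes a calcium-regulated carrier that exchanges ATP-magnesium for phosphate and so sets the adenine nucleotide pool of the matrix. WT livers read 10.57, 10.14, 10.73, 10.28 and 10.33, and KO livers 9.99, 10.09, 10.09, 10.12 and 9.84. The groups did not overlap, but only by 0.02, between WT replicate 2 and KO replicate 4, and WT replicates 1 and 3 stood highest. The mean fell from 10.41 ± 0.24 to 10.03 ± 0.12 (SD, n = 5), a difference of -0.38 with SE 0.10 and a 95% interval of -0.60 to -0.16, so that WT was 1.30-fold KO (limma adjusted p = 0.0479). The call was close to the threshold and was lost under 13 of 19 other settings, with adjusted p up to 0.109 when single arrays were left out. Leaving out any 1 array other than WT replicate 2 or WT replicate 4 ended it, and without the 3 arrays of widest spread the difference was -0.31 (limma adjusted p = 0.242).

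The other ATP-magnesium carriers showed smaller differences. Slc25a23 measured 12.03 ± 0.01 in WT and 12.06 ± 0.04 in KO, Slc25a24 measured 6.17 ± 0.05 and 6.21 ± 0.14, and Slc25a41 measured 7.05 ± 0.04 and 7.07 ± 0.08 (SD, n = 5), and none was called. The log2 ratio of Slc25a25 to Slc25a23 was -1.46, -1.90, -1.29, -1.75 and -1.69 in WT and -2.12, -1.96, -1.92, -1.93 and -2.22 in KO. Every KO ratio lay below every WT ratio, and the difference of -0.41 had an exact two-sided permutation p of 0.00794, the smallest that 5 against 5 arrays can give, and 0.0524 after adjustment. Against Slc25a24 the difference was -0.42 (exact permutation p = 0.0159, adjusted 0.0524). Slc25a24 was dim, near the lower quartile of the arrays and below it in 1 liver, so this ratio mostly follows Slc25a25.

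**Figure D2:**
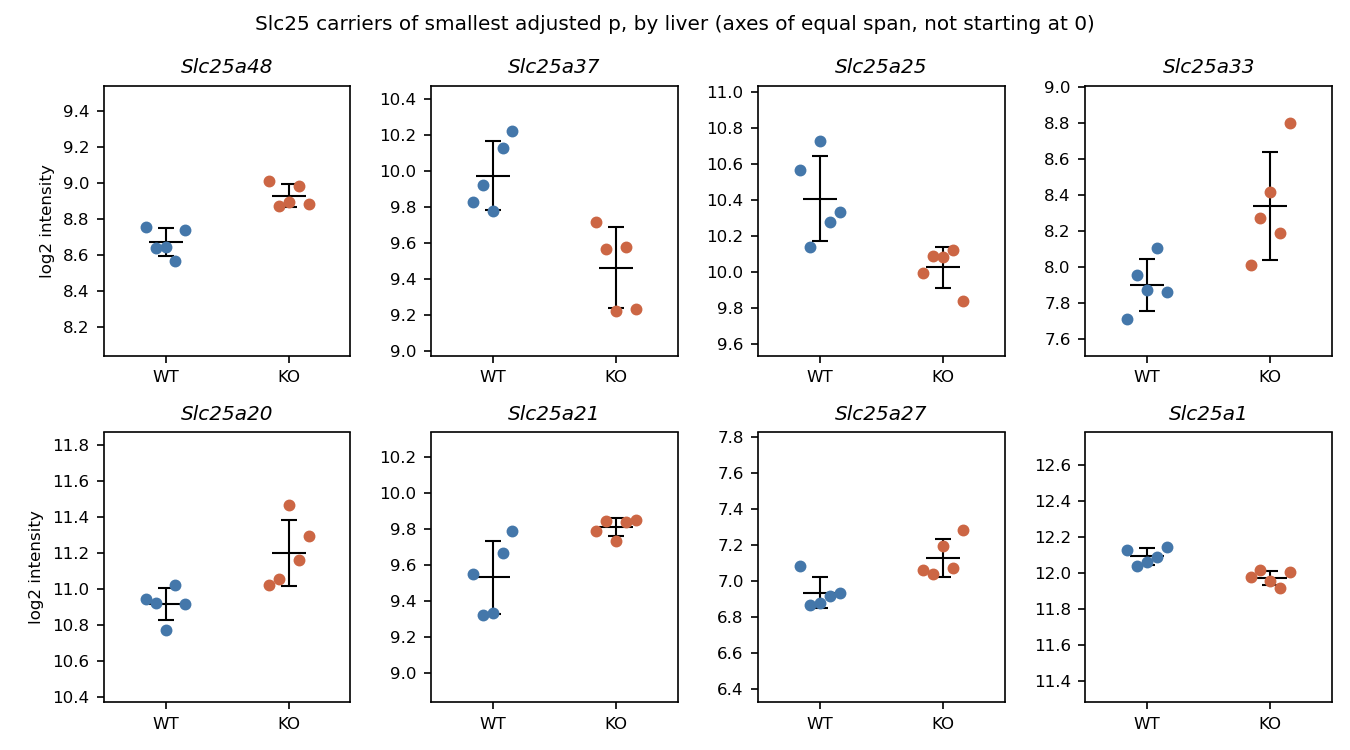
Log2 intensity of the 8 carriers with the smallest adjusted p in each liver, as 1 point per mouse, with the group mean and SD as lines. The vertical axes have equal spans and do not start at 0. The WT and KO points are separate for Slc25a48, Slc25a37, Slc25a25, Slc25a20 and Slc25a1, the 5 carriers whose livers did not overlap, and overlap for Slc25a33, Slc25a21 and Slc25a27.

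Slc25a20, the carnitine/acylcarnitine carrier that admits activated fatty acids to the matrix for beta-oxidation, was not called although its groups did not overlap. WT livers read 10.94, 10.92, 10.77, 11.02 and 10.91, and KO livers 11.02, 11.05, 11.46, 11.16 and 11.29. The gap was 0.0005, between WT replicate 4 and KO replicate 1, and KO replicate 3 was the highest. Means were 10.91 ± 0.09 and 11.20 ± 0.18 (SD, n = 5), a difference of 0.28 with SE 0.08 and a 95% interval of 0.11 to 0.46 (limma adjusted p = 0.0663). It passed under 3 of 19 other settings (a filter on dim genes, trend and robust options of eBayes, and without KO replicate 1), with adjusted p from 0.0442 to 0.251 over all 19.

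Slc25a1, the citrate carrier that exports citrate for fatty acid and sterol synthesis, likewise separated the groups without a call. Its WT livers read 12.13, 12.03, 12.06, 12.09 and 12.14 and its KO livers 11.98, 12.01, 11.95, 11.91 and 12.00. All KO livers were below all WT livers by a gap of 0.02, and the difference was small. Means were 12.09 ± 0.05 and 11.97 ± 0.04 (SD, n = 5), a difference of -0.12 with SE 0.04 and a 95% interval of -0.21 to -0.03 (limma adjusted p = 0.146). No other setting called it, with adjusted p from 0.0601 to 0.364.

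Promoter sequence is shown for 4 of the 5 carriers whose livers did not overlap, of which Slc25a20 and Slc25a1 were not called. The fifth, Slc25a37, had no window in the table used and is in none of the counts of motifs. RefSeq windows of assembly GRCm38.p6 ran from 250 bases before to 50 bases after an annotated start, and only those of the full 300 bases were used. They were matched by gene identifier for 36 of the 46 carriers, 46 windows in all because some genes have several starts. Slc25a48, Slc25a25, Slc25a20 and Slc25a1 are among these genes. The 250 bases before the start are printed 5' to 3' on the gene's strand, with matches to the motifs named afterwards in capitals. They lie at chr13:56438105-56438354 on the plus strand for Slc25a48, chr2:32424067-32424316 on the minus strand for Slc25a25, chr9:108661886-108662135 on the plus strand for Slc25a20 and chr16:17928220-17928469 on the minus strand for Slc25a1. Slc25a25 has 3 annotated starts, and the window shown is the one with matches.
Slc25a48: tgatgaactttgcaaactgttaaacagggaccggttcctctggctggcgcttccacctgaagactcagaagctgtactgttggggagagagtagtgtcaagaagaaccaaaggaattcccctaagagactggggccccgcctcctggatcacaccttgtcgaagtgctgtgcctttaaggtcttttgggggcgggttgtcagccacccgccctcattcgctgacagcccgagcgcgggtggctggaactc
Slc25a25: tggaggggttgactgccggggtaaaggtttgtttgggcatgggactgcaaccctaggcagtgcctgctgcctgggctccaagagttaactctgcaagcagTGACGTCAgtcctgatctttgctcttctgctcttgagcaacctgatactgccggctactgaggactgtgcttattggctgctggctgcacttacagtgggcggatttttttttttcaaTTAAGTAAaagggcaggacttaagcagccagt
Slc25a20: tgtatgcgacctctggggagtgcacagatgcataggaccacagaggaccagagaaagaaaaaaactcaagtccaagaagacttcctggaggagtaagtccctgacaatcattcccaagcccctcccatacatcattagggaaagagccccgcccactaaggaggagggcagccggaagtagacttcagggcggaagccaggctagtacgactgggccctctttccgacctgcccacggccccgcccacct
Slc25a1: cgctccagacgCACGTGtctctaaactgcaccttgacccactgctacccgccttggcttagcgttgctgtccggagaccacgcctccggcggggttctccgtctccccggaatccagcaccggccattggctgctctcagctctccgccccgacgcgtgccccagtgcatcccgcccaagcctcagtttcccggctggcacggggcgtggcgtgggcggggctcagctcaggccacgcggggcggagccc

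Each window was searched on both strands for 4 motifs. TAGGTCA, the core of the element bound by Rev-erb and ROR receptors, was found in 0 of the 46 windows of these 36 carriers and in 2.61% of 32851 windows of all genes. The E-box CACGTG, read by CLOCK and BMAL1 and by other helix-loop-helix factors, was found in 8 carrier windows of 7 genes, or 17.4%, beside 7.15% of all windows. These 7 genes were Slc25a1, Slc25a13, Slc25a14, Slc25a15, Slc25a31, Slc25a33 and Slc25a36, and none of them was called. Overlapping windows of Slc25a14 held the same E-box, which was counted in each. The D-box TTANGTAA, read by PAR bZIP factors and NFIL3, was found in 1 carrier window, that of Slc25a25, or 2.17% beside 2.32% of all windows. The cAMP element TGACGTCA was found in 2, of Slc25a25 and Slc25a36, or 4.35% beside 1.79%. A match is a run of letters and not a measured binding site, windows of 1 gene can overlap, and the absence of a match says only that the letters are not in that window.

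Among the 8 carriers of adenine nucleotides and phosphate, 1 was called (Slc25a25, lower) and the median difference was 0.03. Slc25a5, an ADP/ATP exchanger, measured 13.62 ± 0.04 in WT and 13.61 ± 0.04 in KO (SD, n = 5), with a 95% interval of the difference from -0.11 to 0.08. Slc25a3, the phosphate carrier that feeds ATP synthase, measured 12.74 ± 0.03 and 12.72 ± 0.03 (SD, n = 5), with an interval of -0.11 to 0.06. For both, changes larger than about 0.11 in either direction lay outside the interval of the probe set used. Slc25a5 had 3 probe sets, and the dimmer ones differed by -0.07 and 0.00, also uncalled. Slc25a4, the ADP/ATP exchanger best known from heart and muscle, measured 7.74 ± 0.07 and 7.84 ± 0.05 (SD, n = 5; limma adjusted p = 0.327). Its log2 ratio to Slc25a5 was higher in KO by 0.11 (exact permutation p = 0.0238, adjusted 0.0524). Slc25a31, the germ cell ADP/ATP exchanger, lay below the lower quartile of its array in all 10 livers.

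None of the 4 carriers of citrate, dicarboxylates and oxoacids was called, and their median difference was 0.10. Slc25a21, the oxodicarboxylate carrier of lysine and tryptophan breakdown, read 9.55, 9.32, 9.33, 9.66 and 9.79 in WT and 9.79, 9.84, 9.73, 9.84 and 9.85 in KO. The KO livers were tightly grouped, while the WT livers spread from well below them to just inside their range. The difference was 0.28 with SE 0.08 (limma adjusted p = 0.0775), and it was called without WT replicate 5 (adjusted p = 0.0227) and after quantile normalization (adjusted p = 0.0475). Slc25a10, the dicarboxylate carrier, differed by 0.17 (limma adjusted p = 0.308) and Slc25a11, the oxoglutarate/malate carrier of the malate-aspartate shuttle, by 0.04 (limma adjusted p = 0.840).

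The 9 amino acid carriers held 0 calls, with a median of -0.00, a range of -0.10 to 0.10 and a smallest limma adjusted p of 0.556. An unadjusted limma p under 0.05 was found for 0 of them, beside 17.4% of all genes. Slc25a13, the aspartate/glutamate carrier citrin of liver, measured 11.81 ± 0.07 in WT and 11.82 ± 0.04 in KO (SD, n = 5), with a 95% interval of -0.08 to 0.12. Its relative Slc25a12, aralar, measured 10.06 ± 0.09 and 10.02 ± 0.09 (SD, n = 5). Slc25a15, the ornithine carrier of the urea cycle, measured 11.70 ± 0.16 and 11.80 ± 0.12 (SD, n = 5; limma adjusted p = 0.640). The glutamate carriers Slc25a22 and Slc25a18, the basic amino acid carriers Slc25a29 and Slc25a2, the heme-linked glycine carrier Slc25a38 and the branched-chain amino acid carrier Slc25a44 had differences between -0.10 and 0.05.

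The 11 carriers of acylcarnitine and cofactors, Slc25a20 included, held 0 calls and a median of 0.08. An unadjusted limma p under 0.05 was found for 4, or 36.4%, beside 17.4% of all genes. Slc25a33, a pyrimidine nucleotide carrier linked to mitochondrial DNA synthesis, read 7.71, 7.96, 7.87, 8.11 and 7.86 in WT and 8.01, 8.27, 8.42, 8.19 and 8.80 in KO. Only KO replicate 1 lay inside the WT range, and KO replicate 5 stood highest. The difference was 0.44 with SE 0.13, or 1.35-fold (limma adjusted p = 0.0658), and the adjusted p was 0.0292 without KO replicate 1 and 0.0491 without WT replicate 4. Slc25a36, which carries the same nucleotides, differed by -0.05 (limma adjusted p = 0.864). With the brighter Slc25a36 probe set, the ratio of the 2 was higher in KO by 0.49 (exact permutation p = 0.0238, adjusted 0.0524). The dimmer Slc25a36 probe set differed by 0.16, so the ratio difference would be smaller with that set.

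The coenzyme A carriers Slc25a16 and Slc25a42 differed by 0.10 and 0.16, and the folate and FAD carrier Slc25a32 by 0.19. For Slc25a26, which imports S-adenosylmethionine, the difference was 0.08, and for the peroxisomal cofactor carrier Slc25a17 it was -0.03. The glutathione carriers Slc25a39 and Slc25a40 differed by -0.09 and -0.02, and the NAD+ carrier Slc25a51 by -0.15. None of these 8 passed. For Slc25a40 and Slc25a36 a dimmer probe set of the same gene gave -0.13 and 0.16, also uncalled, the latter opposite in sign to the probe set used.

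Of the 3 carriers related to the uncoupling proteins, 0 were called. Slc25a30 had the widest interval of the family. It read 10.63, 11.97, 11.40, 10.47 and 10.70 in WT and 9.54, 10.64, 11.05, 10.03 and 10.95 in KO. WT livers spanned a range of 1.51 and KO livers nearly the same range, and the groups overlapped widely. The difference was -0.59 with SE 0.33 and a 95% interval of -1.30 to 0.12 (limma adjusted p = 0.407), the most negative difference of the 46 carriers and the only uncalled one past 1.5-fold. Slc25a27 and Slc25a14, known mainly from brain, differed by 0.19 (limma adjusted p = 0.0970, and 0.0493 without WT replicate 1) and -0.05.

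Among the 9 less well characterised members, 1 was called (Slc25a48, higher) and the median was 0.14. Slc25a34 had the most positive difference of the family, 0.53 with SE 0.20, but was not called (limma adjusted p = 0.165). It read 7.23, 7.59, 7.73, 7.47 and 7.56 in WT and 7.85, 7.39, 8.31, 7.95 and 8.73 in KO. KO replicate 2 lay within the WT range while the other 4 KO livers lay above it, and without KO replicate 2 the adjusted p was 0.0341. Slc25a47, a carrier largely restricted to liver, measured 11.75 ± 0.39 and 11.85 ± 0.42 (SD, n = 5), so its spread between mice was several times its difference of 0.10. Slc25a46, an outer membrane relative that takes part in mitochondrial fusion and fission, differed by 0.17 (limma adjusted p = 0.150). Slc25a35, Slc25a43, Slc25a45, Slc25a53 and Slc25a54 had differences between -0.08 and 0.14, of which Slc25a54 lay below the lower quartile in all 10 livers.

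Spread between mice was about the same for the carriers as for all genes. The median SD of the carriers was 0.09 in WT and 0.09 in KO, beside 0.10 and 0.10 for all genes. The SD exceeded 0.3 for 2 carriers in WT and 4 in KO, and it was larger in KO for 25 and in WT for 21. In 4 places 2 carriers were adjacent protein-coding genes. Slc25a29 and Slc25a47 differed by 0.02 and 0.10, Slc25a41 and Slc25a23 by 0.03 and 0.03, Slc25a54 and Slc25a24 by -0.08 and 0.03, and Slc25a43 and Slc25a5 by -0.03 and -0.01. None of these 8 neighbours was called.

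**Figure D3:**
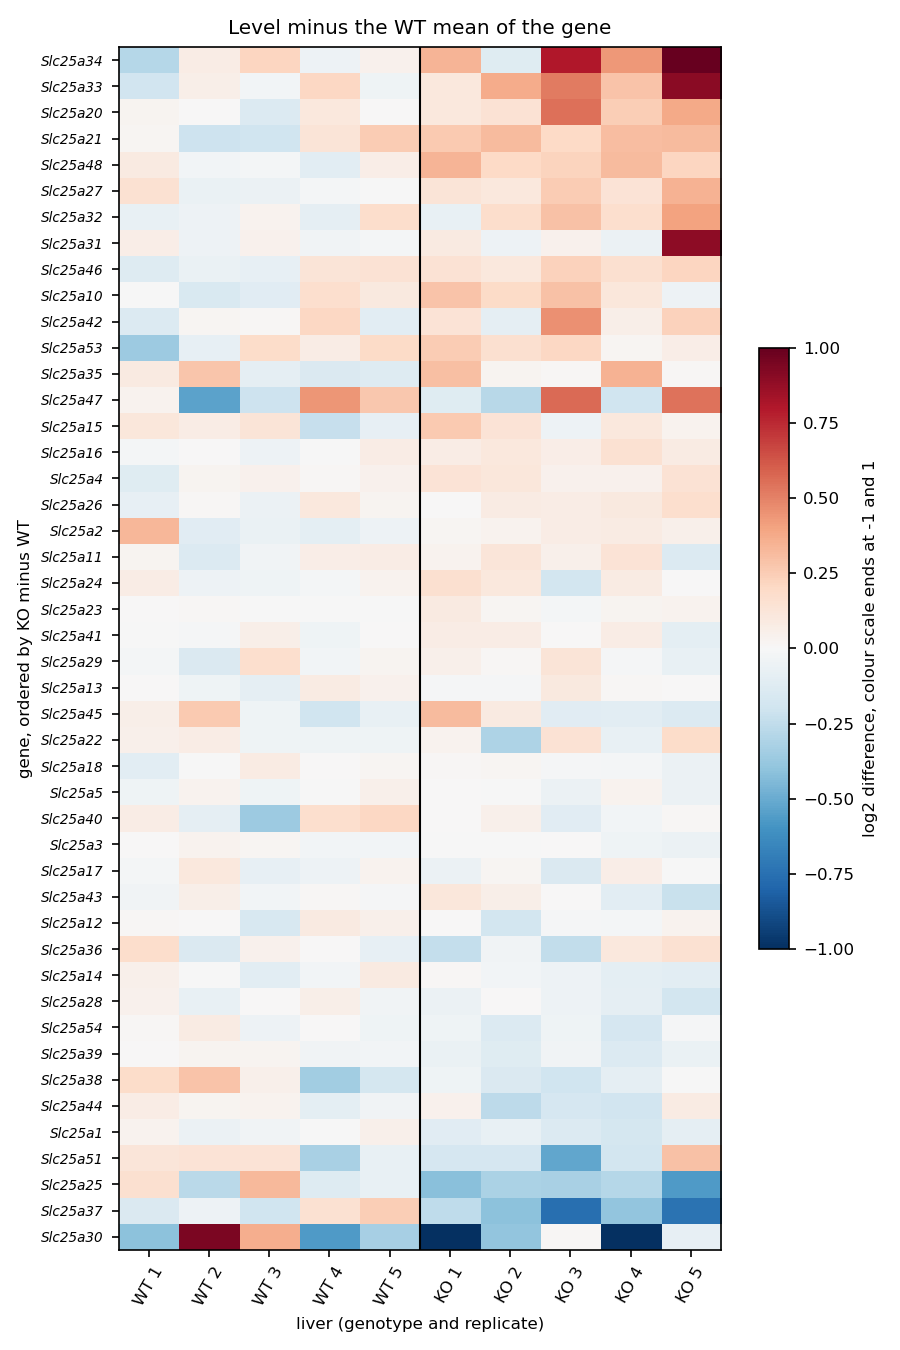
Level of each of the 46 carriers in each liver minus the WT mean of that gene, in log2 intensity, with WT livers left and KO livers right of the line and genes ordered by their difference. The colour scale ends at -1 and 1. Slc25a48 is above its WT mean in all 5 KO livers and Slc25a37 and Slc25a25 are below theirs in all 5, while Slc25a30 and Slc25a47 vary between mice of both genotypes.

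Partner genes of the carriers were read from 9 lists with 94 genes, of which 83 were measured. Of these, 12 were called, 8 higher and 4 lower, or 14.5% beside 5.61% of all genes, and their median difference was 0.01. The lists were chosen with earlier results of these data known. Their share called can therefore come from the choice of genes and is not read as a result. The same holds for the counts of the single lists, to be read beside the same 5.61%. The carnitine shuttle, which makes and unmakes the acylcarnitines moved by Slc25a20, had 3 of 6 genes higher, 0 lower and a median of 0.18. Cpt2, the matrix enzyme that returns acyl groups to coenzyme A, rose from 11.57 ± 0.11 to 11.92 ± 0.11 (SD, n = 5; difference 0.35, limma adjusted p = 0.00791). Crot, the peroxisomal octanoyltransferase, rose by 0.40 (limma adjusted p = 0.0170) and Crat, the acetyltransferase, by 0.59 (limma adjusted p = 0.0396). Cpt1a, the outer membrane enzyme of the entry step, measured 12.42 ± 0.01 in WT and 12.31 ± 0.22 in KO (SD, n = 5), a difference of -0.11 that was not called (limma adjusted p = 0.604).

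The shuttle and citrate enzymes had 1 of 13 higher and 1 lower. Acly, which cleaves in the cytosol the citrate exported by Slc25a1, fell from 10.77 ± 0.16 to 10.18 ± 0.20 (SD, n = 5; difference -0.59, limma adjusted p = 0.00354). Pcx, pyruvate carboxylase, rose by 0.21 (limma adjusted p = 0.0430). In the iron-sulfur and heme list, which uses the iron brought by the mitoferrins, 1 of 10 genes was higher and 0 were lower. Cpox, a late enzyme of heme synthesis, rose by 0.30 (limma adjusted p = 0.0352). Alas1, the first enzyme of heme synthesis in liver, differed by -0.41 (limma adjusted p = 0.156) and Tfrc, the transferrin receptor, by -0.52 (limma adjusted p = 0.229).

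Among 14 other inner membrane transport genes 2 were higher and 2 lower. Mcu, the pore of the mitochondrial calcium uniporter, rose from 8.84 ± 0.13 to 9.49 ± 0.09 (SD, n = 5), a difference of 0.66 or 1.58-fold, the smallest adjusted p of the lists (limma adjusted p = 1.2e-04). Micu2, a subunit that gates this pore, fell by 0.43 (limma adjusted p = 0.0339). Sfxn1, the serine carrier, rose by 0.23 (limma adjusted p = 0.0282), and Abcb10, a transporter linked to heme synthesis, fell by 0.26 (limma adjusted p = 0.0363). Of the 4 measured relatives of the Slc25 carriers with other symbols, Mtch1, an outer membrane member of the family, rose by 0.21 (limma adjusted p = 0.0153). Tomm20, the receptor of the outer membrane import pore, fell by 0.33 (limma adjusted p = 0.00414) and was the only call among 8 outer membrane genes. The TIM22 route that inserts carriers into the inner membrane had 0 of 8 called with a median of -0.11, the urea cycle 0 of 8 with a median of 0.03, and the regulators of mitochondrial biogenesis 0 of 12 with a median of 0.02.

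Several of these partner calls depended on the arrays used. Without the 3 arrays of widest spread, Mcu (0.61, limma adjusted p = 0.00583) and Tomm20 (-0.34, limma adjusted p = 0.0369) were called and the other 10 were not. Pcx lost the call whichever of the 10 arrays was left out, with limma adjusted p from 0.0539 to 0.0933. With single arrays left out, Abcb10 lost it in 8 of 10 fits (adjusted p up to 0.0886), Cpox in 7 (up to 0.0860), Micu2 in 6 (up to 0.0813), Crat in 6 (up to 0.101) and Sfxn1 in 5 (up to 0.0721). Over all 19 other settings their differences kept their sign. They ran from 0.16 to 0.23 for Pcx, -0.30 to -0.22 for Abcb10, 0.25 to 0.33 for Cpox, -0.50 to -0.35 for Micu2, 0.47 to 0.67 for Crat and 0.20 to 0.26 for Sfxn1.

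**Figure D4:**
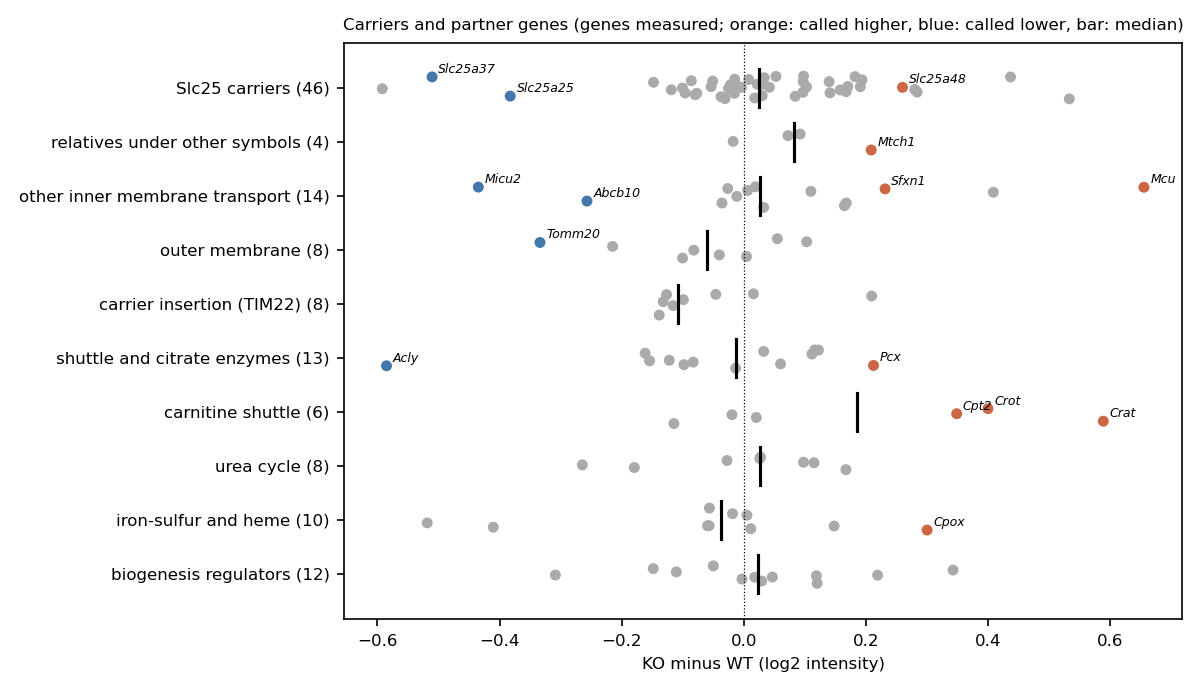
Difference between KO and WT liver in log2 intensity for each Slc25 carrier and each gene of the 9 partner lists, as 1 point per gene, with a bar at the median and the number of measured genes in brackets. The carriers centre near 0 (median 0.02), the carnitine shuttle has 3 called genes to the right of 0, and Mcu (0.66) is the called gene farthest to the right and Acly (-0.59) the one farthest to the left.

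Of the 11 pairs of related carriers compared by their log2 ratio within each array, 0 had an adjusted exact permutation p under 0.05. Since the smallest possible p was 0.00794, 1 pair alone could not pass after adjustment, however complete its separation. At an unadjusted exact permutation p under 0.05 there were 5, Slc25a4 with Slc25a5, Slc25a37 with Slc25a28, Slc25a33 with Slc25a36 and Slc25a25 with each of Slc25a24 and Slc25a23, all at an adjusted p of 0.0524. The pairs Slc25a13 with Slc25a12 (0.06), Slc25a22 with Slc25a18 (0.01), Slc25a39 with Slc25a40 (-0.07) and Slc25a16 with Slc25a42 (-0.06) had the smallest ratio differences. Pairs that include Slc25a30 or Slc25a34 differed by 0.54 and 0.39, within the spread of those genes between mice.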

How the data were processed

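Liver RNA of 10 mice, 5 WT and 5 KO, was measured on Affymetrix Mouse Gene 1.0 ST arrays. Normalized intensities of 27541 probe sets were deposited by the authors. Per the submitters' processing notes, RMA and Partek were used. Their versions, settings and any filter on probe sets are not given in the sources used here. Since the deposited intensity values are linear, log2 was taken. Without detection calls in the table, signal over background could not be judged. Precision is limited by the number of arrays.

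Names came from an annotation table of the array, in which 21631 had 1 symbol, 1317 several and 4593 none. Only those with 1 symbol were used, with the probe set of highest mean for the 951 genes that had more, which left 19933 genes. Whether each probe set lies at the gene it is named for was not checked. The genotypes were compared with lmFit and eBayes of limma (version 3.58.1, in R 4.3.3), two-sided and without covariates, with Benjamini-Hochberg adjustment over all genes. Ratios of 11 pairs of related carriers were tested by an exact permutation test, two-sided, over 252 assignments of arrays, with smallest possible p 0.00794, adjusted over the pairs. The limma step was tested on simulated arrays, and the permutation step on made-up values with known answers.

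Every carrier could be named. Values by array were given for called carriers and for those whose groups did not overlap, and other carriers by role, with values by array added for Slc25a33, Slc25a21, Slc25a30 and Slc25a34 after their values were seen. Called genes of the 9 partner lists were named, up to 6 a list, and Cpt1a, Alas1 and Tfrc were added after their values were seen. Nr1d1 and Arntl were read as checks of the labels, and 9 marker lists (hepatocyte, cholangiocyte, Kupffer cell, sinusoidal endothelium, stellate cell, erythroid, neutrophil, skeletal muscle and fat) were read as sums. The members and lists were chosen with earlier results of these data known. Alternatives were a filter on dim genes, all probe sets, the mean over probe sets of a gene, median centring, quantile normalization, an offset of 32, array weights, eBayes with trend and robust options, and leaving out each array in turn. Leaving out the 3 arrays of widest interquartile range was added after seeing the data.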

Additional observations from a re-analysis of the deposited data

Results flagged for a closer look

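Within a genotype, 5 of 92 groups of 5 livers had 1 array whose gap to the nearest other, divided by the whole range of the group, exceeded the 95% limit of Dixon's rule. Chance alone gives about 1 in 20 such groups. For Slc25a2, WT replicate 1 (6.79) stood above the other WT livers, of which the highest was 6.41, with a ratio of 0.856. For Slc25a31, KO replicate 5 (5.71) stood above the others, at most 4.90, with a ratio of 0.845, and was still below the lower quartile of its array. For Slc25a4, WT replicate 1 (7.62) stood below the others, at least 7.75, with a ratio of 0.807. For Slc25a13, KO replicate 3 (11.90) stood above the others, at most 11.82, with a ratio of 0.806. For Slc25a12, KO replicate 2 (9.88) stood below the others, at least 10.04, with a ratio of 0.734. None of these 5 carriers was called.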

How the results depend on the processing

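Under the 19 other settings, no called carrier or called partner gene changed sign. Carriers called numbered 3, and 5 of 35 tested after the filter on dim genes, which adds Slc25a20 and Slc25a33 and raises the share called of all genes from 5.61% to 12.8%. Without the 3 arrays of widest interquartile range, WT replicate 1, KO replicate 4 and KO replicate 5, 1 carrier (Slc25a48) and 2 partner genes were called, beside 2.64% of all genes. That setting has 7 livers, and the cause of the lost calls was not tested beyond that. Leaving out single arrays gave 2 to 4 called carriers and 6 to 13 called partner genes, against 12. The partner count was 7 without WT replicate 1, WT replicate 3 or KO replicate 4, and 6 without WT replicate 5 or KO replicate 5. Pairs passing numbered 0 to 4 over single arrays left out, with 4 without KO replicate 4. The filter on dim genes called 16 partner genes, and the other settings with all 10 arrays gave 2 to 4 called carriers and 8 to 14 called partner genes. Dim carriers such as Slc25a31 and Slc25a54 have no known signal over background. No paired analysis was possible because the labels give no replicate numbers shared between genotypes.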
